A study of Mus musculus with 24 samples.

Results

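High and low freezing mice were compared over the hippocampus and the amygdala together, with all 24 arrays of the series: 12 described as High Freezing and 12 as Low Freezing, with 6 arrays per region in each. The arrays were chosen by their description and title number, 7 to 12 for high and 1 to 6 for low freezing, and region entered the comparison as a covariate. All mice descend from a cross of C57BL/6J and A/J, both inbred, that was selected for contextual fear conditioning, and no treatment, sex or age is named for any group. The labels do not say how many lines were selected for each behaviour, nor whether an array held RNA of 1 animal or a pool, so effects of selection and of alleles fixed by chance cannot be told apart. Nor do they say that arrays with the same number in both regions came from the same animal. All p-values therefore measure the spread between these arrays.

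Contextual fear conditioning measures how long a mouse stays motionless in a place where it was shocked. The hippocampus is needed to form a memory of the place, and the amygdala to link that memory to the aversive event. Selection in a cross of inbred strains changes the frequency of parental alleles around the loci that affect the trait, and those alleles are carried in every tissue. On these Affymetrix arrays a transcript is read by a probe set, a group of short oligonucleotides whose combined brightness is its intensity in arbitrary units. Many genes have several probe sets, placed on different exons or transcript ends, so each can be checked against the others.

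Of 45037 probe sets that are not controls, the 27022 with the highest mean intensity were tested, with means from 24.24 units upward. Of these, 22837 carry 1 gene symbol, and they represent 12491 genes. Array medians were slightly higher in high freezing arrays, 41.2 ± 1.87 against 39.29 ± 1.95 units (SD, n = 12 each; exact permutation p within regions 0.00111, adjusted p 0.00333 over 3 tests). The log2 ratio of 3' to 5' Gapdh control probe sets, a measure of RNA integrity, was -0.31 ± 0.0874 against -0.24 ± 0.0703 (exact permutation adjusted p = 0.0627, n = 12 each), and that of actin 0.85 ± 0.117 against 0.90 ± 0.104 (exact permutation adjusted p = 0.292, n = 12 each). Summed dentate granule cell markers ranged from 2579 to 3232 units in hippocampal and 1152 to 1367 in amygdala arrays. Markers of the central amygdala and striatum ran the other way, 7385 to 13950 units in amygdala and 1723 to 2260 in hippocampal arrays. The list for basolateral amygdala and claustrum was lower in the arrays labelled amygdala, 1403 to 1972 units against 2734 to 3251, so that list does not set these arrays apart in the labelled direction.

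High and low freezing arrays differed at 284 of 27022 probe sets over both regions, which is 1.05% of those tested. In the high freezing arrays 143 (0.529%) were higher and 141 (0.522%) lower, at a limma adjusted p of 0.05. The differences were mostly small. Their absolute size on the scale of log2(intensity + 16) had a median of 0.36 and ran from 0.15 to 2.04, and 52 probe sets differed at least 1.5-fold and 8 at least 2-fold. Folds on this scale understate the change of dim probe sets. Calls in the high direction came from dimmer probe sets, with a median mean intensity of 151 units against 326 for those in the low direction and 125 for all tested. The unadjusted p was under 0.05 at 4260 probe sets (15.8%).

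The number of calls moved when both arrays of 1 title number were left out and when array median entered as a covariate. Without the arrays numbered 11, 3, 5 or 12 it was 136, 153, 159 or 169, and without number 2 the calls in the low direction were 89. With each array's median as a further covariate 20 calls were left, 7 higher and 13 lower. All 284 differences kept their sign in that fit, at a median 0.9008 of their size, while their median standard error went from 0.07857 to 0.1027. Centring arrays on their median turned the balance to 110 higher and 680 lower. Of 85 called probe sets in the naming rule, those of Gm26782, Cuedc1, Gfap, Atp8a1, Zeb2, Tsc22d1 and Msi2 were still called with the covariate, at 1 probe set each. The share of the other differences that goes with array brightness was not tested.

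**Figure D1:**
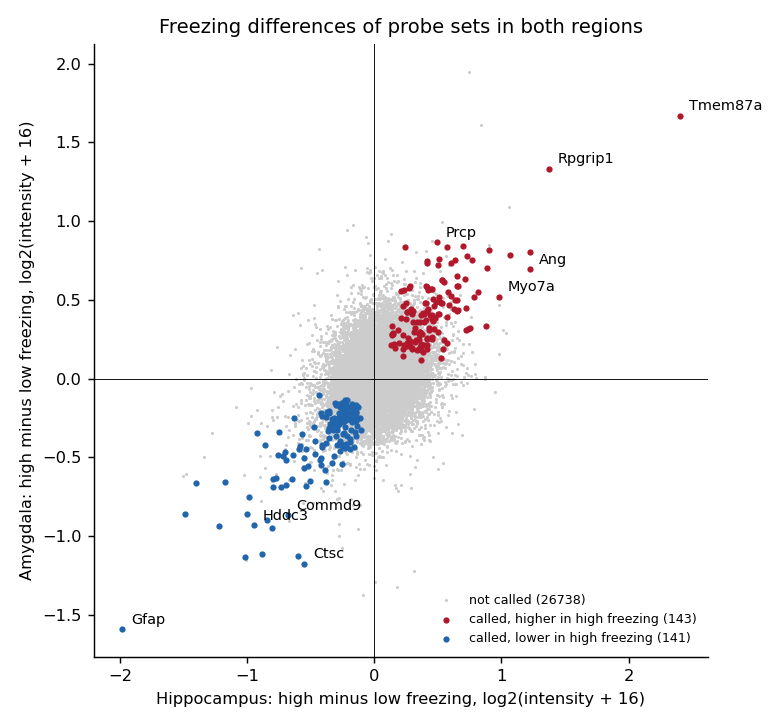
Each point is a probe set, with the difference between high and low freezing arrays in the hippocampus on the horizontal axis and in the amygdala on the vertical axis, both on the scale of log2(intensity + 16). The 143 probe sets called higher (red) and 141 called lower (blue) over both regions lie at the upper right and lower left, Tmem87a at 2.40 and 1.67, the others nearer the origin.

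Differences chosen in 1 region mostly kept their sign in the other, at a smaller median size. The 50 probe sets with the smallest p in the hippocampus alone had the same sign in the amygdala in 48 cases (96%), with a median difference of 0.41 in that direction, and 32 of them had an unadjusted p under 0.05 there. Of the 500 smallest, 422 (84.4%) kept their sign and 141 (28.2%) had such a p. Their median difference was 0.15 in the amygdala, against a median absolute one of 0.396 in the hippocampus. In reverse, 42 of the top 50 amygdala probe sets (84%) kept their sign in the hippocampus, 24 with an unadjusted p under 0.05, and 391 of the top 500 (78.2%) did so. Among all probe sets 58.7% shared their sign, and 6.89% of the hippocampal signs and 9.19% of the amygdala signs recurred with an unadjusted p under 0.05 in the other region. Probe sets are not independent of each other, so these shares are descriptions. Array medians were higher in high freezing arrays of both regions, by 2.13 units in the hippocampus and 1.69 in the amygdala. Their part in the shared signs was not tested.

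All 284 called probe sets had the same sign in both regions, and 241 had an unadjusted p under 0.05 in each region alone. Choosing them from the combined fit of the same arrays favours both counts, so neither is independent support. Fitted alone, the hippocampus gave 22 calls (0.0814%) and the amygdala 0, with 3346 and 2570 unadjusted p under 0.05 (12.4% and 9.51%). No probe set passed limma's interaction test for a difference between regions. There the smallest adjusted p was 0.7153, and 1640 probe sets (6.07%) had an unadjusted p under 0.05, among them 13 of the 284. The 5 genes with the smallest interaction p were Col11a1, Fat4, Cd82, Nsfl1c and Hspa1a. Col11a1, a collagen chain, had a difference of -0.46 in the hippocampus and 0.33 in the amygdala. For Fat4, a giant cadherin, the values were -0.31 and 0.37, and for the inducible chaperone Hspa1a 0.29 and -0.69. Cd82, a tetraspanin, had 0.29 and -0.21, and Nsfl1c, a cofactor of membrane fusion, -0.17 and 0.23.

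Only 4 probe sets (0.0148%) had high and low freezing arrays that did not overlap in either region, compared with 221 (0.818%) in the hippocampus and 150 (0.555%) in the amygdala taken separately. Adgrl4, an adhesion receptor of blood vessel endothelium, ranged from 87.6 to 114 units in high and 49.04 to 75.5 in low freezing hippocampus. In the amygdala it was 115 to 159 against 74.9 to 107 units. Every high freezing array was thus above every low freezing array of its region, by a log2 difference of 0.48 (SE 0.0729, 1.40-fold, limma adjusted p = 0.000991). Its other probe set had a difference of 0.0872. The second named probe set was 1 of 3 for Smg1, a kinase of nonsense-mediated mRNA decay. It was lower in high freezing arrays, 56.1 to 84.8 against 92.6 to 142 units in the hippocampus and 53.8 to 89.2 against 90.9 to 173 in the amygdala, with a log2 difference of -0.52 (limma adjusted p = 0.00649). The remaining 2 probe sets carry no symbol here and were higher in high freezing arrays by 0.86 and 0.67.

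Among genes at their brightest probe set, 133 of 12491 (1.06%) were called, 64 higher (0.512%) and 69 lower (0.552%). The largest increase belonged to Tmem87a, which encodes a Golgi membrane protein. In low freezing arrays it ranged from 1.95 to 240.4 (median 72.2) units in the hippocampus and 2.43 to 245 (median 128) in the amygdala. In high freezing arrays the ranges were 176 to 448 (median 355) and 88.5 to 465 (median 355). Both low freezing groups held arrays near 0 beside arrays above 200 units, so the groups overlapped. The difference was 2.04 on the log2 scale (SE 0.45, 4.10-fold, limma adjusted p = 0.0206), and without number 5 or 11 the adjusted p was 0.07 or 0.0599.

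Rpgrip1, known from the connecting cilium of photoreceptors, also varied widely among low freezing arrays. It ranged from 442 to 1063 (median 872) units in high and 38.1 to 967 (median 398) in low freezing hippocampus. In the amygdala the ranges were 574 to 1309 (median 991) and 260.3 to 663 (median 351). Low freezing hippocampal arrays spread widely, with 1 near the top of the high freezing range, and the regional differences were 1.37 and 1.33 (together 2.55-fold, limma adjusted p = 0.019). Ang, whose product angiogenin is a secreted ribonuclease, was at 39.4 to 65.6 (median 49.8) units in high and 1.58 to 30.1 (median 12.4) in low freezing hippocampus, without overlap. In the amygdala it was at 30.2 to 84.8 (median 49.97) and 15.3 to 48.7 (median 25.3), with overlap, and the combined difference was 0.96 (SE 0.17, limma adjusted p = 0.00312).

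Myo7a, an actin motor of sensory hair bundles, was 42.9 to 97.97 (median 81.9) units in high and 20.5 to 38.01 (median 30.1) in low freezing hippocampus. Amygdala arrays held more of it, 89.3 to 135 (median 110.1) and 41.9 to 101 (median 73.5) units, and only there did the groups overlap. Its difference was 0.75 (SE 0.12, limma adjusted p = 0.00143). Prcp, a carboxypeptidase that trims angiotensin and melanocortin peptides, was at 54.4 to 116 (median 70.7) units in high and 22.6 to 50.1 (median 28.7) in low freezing amygdala, without overlap. In the hippocampus it was at 28 to 53.97 (median 49.8) and 21.6 to 36.3 (median 28.2), and the difference was 0.68 (SE 0.12, limma adjusted p = 0.00312). Slc7a11, the light chain of the cystine and glutamate exchanger, was higher by 0.65 (limma adjusted p = 0.0069). Its high and low freezing arrays did not overlap in the amygdala, with 52.95 to 67.2 against 28.4 to 48.3 units, and overlapped in the hippocampus, with 40.9 to 82.7 against 15.7 to 52.8. Cuedc1 was higher by 0.61 (limma adjusted p = 0.000991), with 1 of its 2 other probe sets on the same side of 0 and a difference of 0.26 (adjusted p = 0.0447) averaged over its probe sets. The predicted gene Gm26782, with 1 probe set, was higher by 0.77 (limma adjusted p = 0.00201).

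Each of the other genes among the 12 largest increases lost its call in 1 or more fits without 1 title number. Zscan29, a zinc finger protein, rose by 0.68 (limma adjusted p = 0.0176, 0.0637 without number 11). Fam227b rose by 0.69, and its call ended without number 1, 4, 5, 11 or 12, at an adjusted p of up to 0.0802. Zgrf1, a helicase of DNA repair, rose by 0.58 and lost its call without number 3, 4, 9, 11 or 12, with an adjusted p of up to 0.0973. Dbh, the enzyme that makes noradrenaline from dopamine, rose by 0.58, and its call ended without any 1 of the numbers 2 to 6 and 9 to 12, at up to 0.117.

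**Figure D2:**
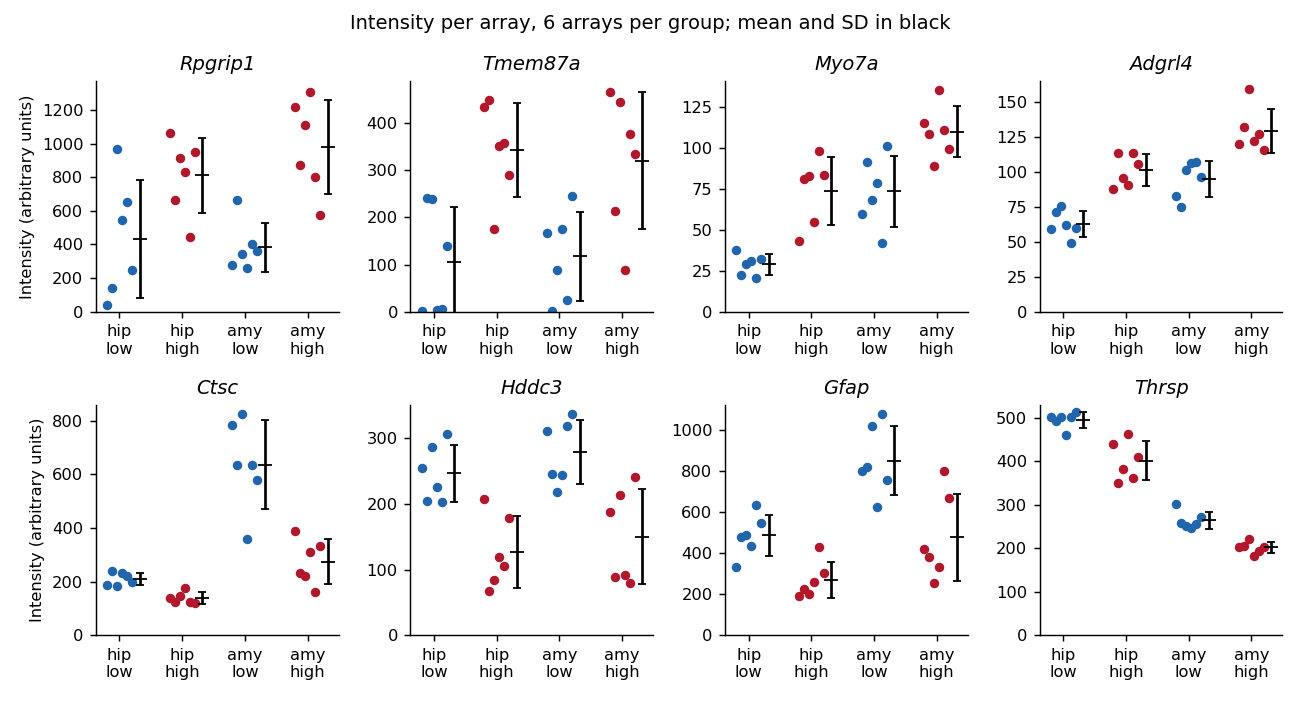
Intensity on each array, in arbitrary units on axes starting at 0, for 4 genes that were higher in high freezing arrays (upper row) and 4 that were lower (lower row). Blue points are low and red points high freezing arrays, 6 per region and group, with mean and SD in black; Adgrl4 separates the groups in both regions, while Tmem87a has low freezing arrays near 0 and others above 200.

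Among the 69 genes that were lower in high freezing arrays, Hddc3, which encodes a hydrolase of the nucleotide ppGpp and of NADPH, had the lowest difference. It ranged from 67.2 to 209 (median 113) units in high and 203 to 306 (median 241) in low freezing hippocampus. The amygdala ranges were 79.5 to 241 (median 139.8) and 219 to 338 (median 279). In each region some of the high freezing arrays lay below 100 units and 1 or more inside the low freezing range. Regional differences were nearly equal, -0.95 and -0.93, and the combined one was -0.94 (SE 0.16, 1.92-fold, limma adjusted p = 0.00253). Its second probe set, near the intensity limit at a mean of 25.6 units, had the opposite sign, 0.23, with an unadjusted p of 0.0414.

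Ctsc encodes cathepsin C, a lysosomal protease that activates other proteases of immune cells. High freezing hippocampal arrays held 119.9 to 178 (median 133) units, against 185 to 239 (median 209) in low freezing ones, without overlap. Amygdala arrays held 163 to 389 (median 270.4) and 359 to 824 (median 634) units, and the ranges overlapped narrowly. The difference was -0.55 in the hippocampus and -1.17 in the amygdala, together -0.86 (SE 0.13, 1.82-fold, limma adjusted p = 0.000991), and the interaction had an unadjusted p of 0.0122 and did not pass. Commd9, a member of an endosomal sorting complex, fell by 0.77 (limma adjusted p = 0.00857). Ccdc91, which binds sorting adaptors of the trans-Golgi network, fell by 0.71 (limma adjusted p = 0.00272).

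Ivd, an enzyme of leucine breakdown, ranged from 236 to 349.6 units in high and 325 to 509 in low freezing hippocampus and had a difference of -0.53 (limma adjusted p = 0.00649). Anks3 had a difference of -0.56 (limma adjusted p = 0.0126), 0.00191 at its other probe set and -0.28 averaged over both. At these probe sets both genes were called in each of the 12 fits that left out 1 number. Atp8a1, a flippase that moves phospholipids across membranes, was the brightest of these genes at 752 to 1374 (median 1022) units in high and 1227 to 1980.2 (median 1707) in low freezing hippocampus. Its difference was -0.58 (limma adjusted p = 0.0181), and without number 3 or 10 the adjusted p was 0.0615 or 0.0527. Of its 6 other probe sets 4 lay above 0, and averaged over all of them the gene had -0.0843 and was not called (adjusted p = 0.34). Rbbp9, a serine hydrolase, fell by 0.61, and its call ended without number 1, 2, 5, 8 or 11 (adjusted p up to 0.0874). For Ccdc25 (-0.64), the transcription factor Sall3 (-0.56) and 2610507I01Rik (-0.52), the call ended without number 2, 3, 4, 5, 11 or 12 in all 3 genes, and without further numbers (1 and 9 for Ccdc25, 7 and 8 for Sall3, 1, 6, 8 and 10 for 2610507I01Rik). The highest adjusted p were 0.0841, 0.0867 and 0.116.

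Gfap, the intermediate filament of astrocytes, was lower in high freezing arrays at each of its 3 probe sets. At the brightest, high freezing hippocampal arrays held 192 to 432 (median 242) units against 334 to 634 (median 483) in low freezing ones. Amygdala arrays held 253 to 801 (median 402) against 627 to 1077 (median 810.3) units. In each region the highest of the high freezing arrays, both numbered 11, lay inside the low freezing range, and the difference was -0.87 (SE 0.14, 1.83-fold, limma adjusted p = 0.00219). The probe set 1440142_s_at, dimmer at a mean of 105 units, had a difference of -1.79 (SE 0.28, limma adjusted p = 0.00129). There the high freezing hippocampal arrays, 4.94 to 90.2 units, all lay below the low freezing ones, 101 to 249, and in the amygdala they overlapped, 4.25 to 201 against 105 to 279. The third, 1426509_s_at, had a mean of 481 units, close to that of the brightest, yet a difference of -0.29 (SE 0.0738, limma adjusted p = 0.0486), which 8 of 12 fits without 1 number (1, 2, 3, 5, 7, 9, 10 and 11) lost. The 3 differences thus ran from -0.29 to -1.79 on the log2 scale.

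No other astrocyte marker was called at its brightest probe set. Of 12 measured, 4 were above 0 and the median difference was -0.0441, against 0.00194 over all genes, with 1 called (0.552% of all genes were called lower). Differences were -0.17 for Aldh1l1, -0.16 for S100b, -0.0717 for the water channel Aqp4 and 0.12 for Fgfr3, none called. Their summed intensity ranged from 18940 to 19780 units in high and 18910 to 21800 in low freezing hippocampus, and from 19010 to 22560 and 21520 to 23840 in the amygdala. In bulk tissue fewer cells of a type and less RNA per cell cannot be told apart. The glutamate transporter Slc1a2 was called at a dimmer probe set (-0.70, mean 183 units, limma adjusted p = 0.0245) and had -0.0833 at its brightest, with a mean of 6104 units. The gap junction gene Gja1 was called higher at 1438650_x_at (0.61, limma adjusted p = 0.0216) and had 0.0664 at its brightest; all 6 of its probe sets were above 0. The Slc1a2 call ended without number 3, 11 or 12 (adjusted p up to 0.0715) and the Gja1 call without 3, 5, 11 or 12 (up to 0.0676).

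Whether a difference held across a gene was examined by comparing its probe sets. Over all genes, 55.9% of 17134 pairs of probe sets of 1 gene with neither called shared their sign, against 229 of 354 pairs (64.7%) with 1 called and 19 of 25 (76%) with both called. Pairs of 1 gene are not independent. Gfap, Mtmr6 and Tsc22d1, each with 3 called probe sets in 1 direction, enter the 25 pairs repeatedly, so no rise between these shares is read from them. At 161 of the 220 called genes (1.76% of genes) other probe sets were measured. At 82 of these genes all other probe sets had the sign of the strongest one, at 51 some did and at 28 none did, so that 225 of 346 other probe sets (65%) agreed in sign. Another probe set with the same sign and an unadjusted p under 0.05 was present at 73 genes, and one with the opposite sign and such a p at 22. Of the 242 called probe sets with 1 symbol, 109 were not the brightest of their gene.

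Of 27 genes in the naming rule that were called at their brightest probe set and had others, averaging over all probe sets ended the call, turned the sign or moved the difference by over 1.5 times in 19. Beside Atp8a1, Hspa5, Cuedc1 and Anks3, the difference was smaller at Hddc3 (-0.35), Commd9 (-0.44), Ccdc91 (-0.28), Ivd (-0.34) and Adgrl4 (0.29, limma adjusted p = 0.0249), all still called. Calls ended at Dbh (0.49, limma adjusted p = 0.0689), Pdia6 (-0.26, 0.0552), Gclc (-0.17, 0.0575), Ngdn (0.0415, 0.804), Rgcc (0.0564, 0.599), Zeb2 (0.0895, 0.46), Pnma2 (0.0967, 0.437), Ptn (0.00689, 0.97) and Ndufa12 (-0.1, 0.27), and at Dusp3, given below. In 19 genes at least 2 probe sets were called, and in 13 of these all calls ran one way. Mtmr6, a phosphatase of phosphoinositide lipids, was called higher at 3 of 4 probe sets, by 0.44, 0.34 and 0.30 (limma adjusted p = 0.00201, 0.00634 and 0.00246). Its brightest had a difference of 0.12 and was not called. At 1425485_at high and low freezing arrays did not overlap in the amygdala, 359 to 441 against 231 to 349.9 units, and did in the hippocampus, 335 to 488 against 249 to 374. Each of the 3 calls held in all 12 fits without 1 number. Prcp had 2 probe sets that agreed closely, 0.68 and 0.70. Thrsp, a protein of lipid synthesis, likewise had -0.33 and -0.34 at its pair of probe sets. At the brighter, high freezing amygdala arrays held 182 to 221 units and low freezing ones 247 to 302, without overlap, and hippocampal arrays overlapped at 351 to 462 against 461 to 512. Scoc, a coiled-coil protein of the Golgi, was called higher at both of its probe sets, by 0.33 and 0.32, and B2m, the light chain of MHC class I molecules, lower at both, with differences of -0.25 and -0.53.

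Of these calls, those of Scoc ended in 6 of 12 fits each, without number 2, 4, 5, 10, 11 or 12 and without 1, 2, 3, 10, 11 or 12 (adjusted p up to 0.0909 and 0.0867). The dimmer Thrsp probe set lost its call without number 1, 2, 3, 5, 8 or 11 (up to 0.0765), and the brighter B2m probe set kept its call only without number 4 or 6 (up to 0.118). In other genes the calls lay at probe sets dimmer than the brightest, while the brightest showed little. Rtn4, which encodes the axon growth inhibitor Nogo, was called lower at 1439650_at (-0.93, mean 166 units) and 1435284_at (-0.74, mean 389.8 units). Its brightest probe set, with a mean of 5749 units, had a difference of -7.4e-05. Trp53bp1, a repair protein of DNA breaks, was called lower at 1457812_at and 1442316_x_at, with means of 38.3 and 37.6 units and differences of -0.91 and -0.88. At its brightest, with a mean of 965 units, the difference was -0.13 and was not called. The Rtn4 call at 1439650_at ended without number 2, 4 or 11 (up to 0.0719) and that at 1435284_at held only without 6, 9 or 12 (up to 0.12). The Trp53bp1 call at 1457812_at ended without number 3, 4, 5, 7 or 11 (up to 0.0683) and that at 1442316_x_at held only without 6, 10 or 12 (up to 0.116).

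Tsc22d1, a leucine zipper protein, was called higher at 3 of 6 probe sets, by 0.51, 0.34 and 0.33, and had -0.0404 at its brightest. The first of these was called in each of the 25 alternatives run on that probe set other than the fits of 1 region alone; the alternatives with 1 value per gene did not hold it, as it is not the brightest. Usp9x, a deubiquitinase, was called higher at its 2 dimmest probe sets (0.43 and 0.37), with all 6 above 0, and the second call ended without number 1, 2, 3, 4, 5, 10 or 12 (adjusted p up to 0.0698). Mef2c, a transcription factor of neurons, was called lower at 2 of 5 probe sets, with differences of -0.63 and -0.44, in both cases without overlap in the hippocampus (167 to 272 against 344 to 554 units at the former). In the amygdala the former overlapped, at 150.5 to 530.3 against 221 to 534 units. Its brightest probe set stood at -0.18 and 1 other at 0.0246, neither called. Each Mef2c call ended without any 1 of the numbers 2 to 6, 8, 9, 11 and 12 (adjusted p up to 0.113). Fam104a was called lower at 2 of 3 probe sets, with differences of -0.64 and -0.29, of which the latter kept its call only without number 6 or 12 (up to 0.11). Calr is described with the folding genes.

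**Figure D3:**
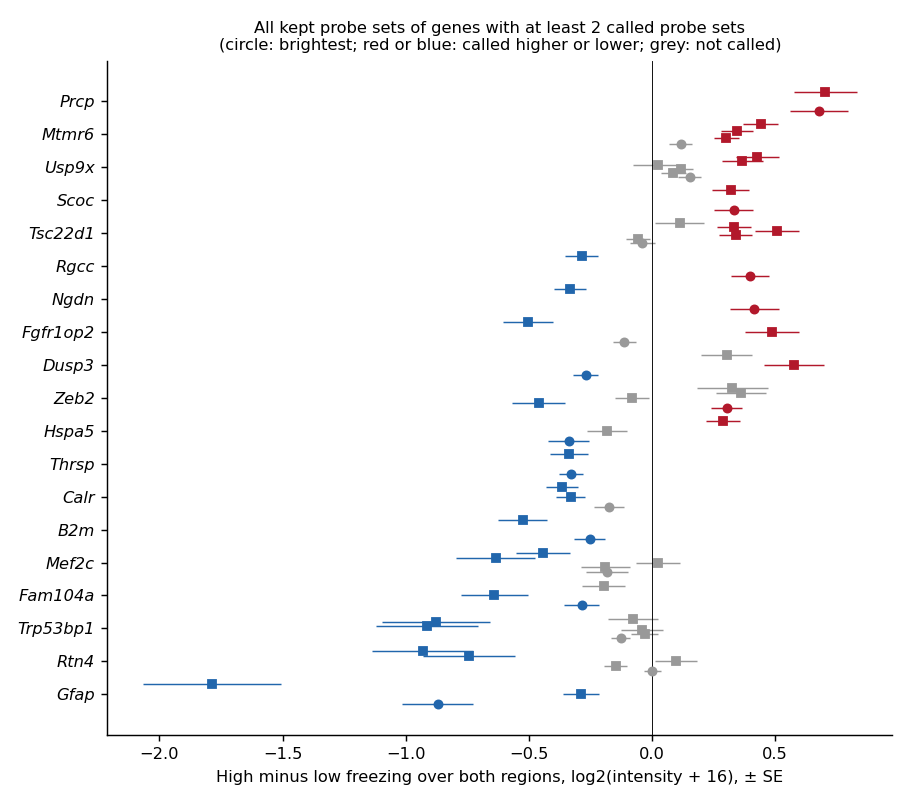
High minus low freezing difference over both regions on the scale of log2(intensity + 16), with its SE, for every tested probe set of the 19 genes with at least 2 called probe sets. Circles mark the brightest probe set of a gene, red and blue calls in the high and low direction and grey points probe sets that were not called; 6 genes have calls on both sides of 0, and in Rtn4 and Trp53bp1 the called probe sets lie far from the brightest.

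Calls in both directions occurred in 6 genes: Dusp3, Fgfr1op2, Hspa5, Ngdn, Rgcc and Zeb2. Dusp3, a phosphatase of MAP kinases, was lower in high freezing arrays at its brightest probe set, 549 to 611 against 638 to 717 units in the hippocampus without overlap and 477 to 686 against 618 to 753 in the amygdala with overlap, a log2 difference of -0.27 (limma adjusted p = 0.00537). At 1456769_at it was higher, 134 to 173 against 72.4 to 137 units, a difference of 0.58 (limma adjusted p = 0.0156). Both calls held in all 12 fits without 1 number, and both had their direction in each region. Averaged over its probe sets the gene stood at 0.20 (limma adjusted p = 0.0796), the opposite sign of its brightest.

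Rgcc, a regulator of the cell cycle, was 355 to 562 units in high and 262 to 331 in low freezing hippocampus at its brighter probe set, without overlap (combined difference 0.40). In the amygdala it overlapped, at 278 to 371 against 224 to 335 units. At the dimmer the hippocampal arrays held 156 to 205 and 199 to 295 units, with a combined difference of -0.29. Ngdn, a partner of the cap-binding translation factor, had 0.42 at its brighter and -0.33 at its dimmer probe set. Fgfr1op2 had 0.49 and -0.50 at its called probe sets and -0.11 at the brightest. Zeb2, a zinc finger repressor, had 0.30 at its brightest and -0.46 at 1422748_at, whose means were close at 481 and 451 units. In these genes a direction for the gene as a whole cannot be given. The values hold no probe sequences, and whether parental base differences lie under these probes, or which transcripts each reads, was not tested.

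Of the calls just named, that of 1418003_at for Rgcc ended without number 1, 2, 5, 8, 9 or 10 (adjusted p up to 0.0829), that of 1438318_x_at for Ngdn without 2, 7, 8, 9, 10 or 12 (up to 0.0627), that of 1431020_a_at for Fgfr1op2 without 1, 5 or 8 (up to 0.0734) and that of 1422748_at for Zeb2 without 3, 5, 10 or 11 (up to 0.0849). A further group had 1 called probe set and another of opposite sign with an unadjusted p under 0.05. Msi2, an RNA-binding protein of progenitor cells, was the largest of these, with a difference of -1.07 at 1435521_at (SE 0.17, limma adjusted p = 0.00129). There the low freezing amygdala arrays held 100.1 to 251 units and the high freezing ones 43.1 to 107, which overlapped narrowly. At the brightest probe set of Msi2, with a mean of 365 units against 87.02, the difference was 0.075, and at 1443008_at it was 0.32. The called Msi2 probe set kept its call in each of the 25 alternatives run on it other than 1 region alone, which do not hold those with 1 value per gene.

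Bcat1, an enzyme of branched-chain amino acid breakdown, had -0.47 at 1455699_at (limma adjusted p = 0.00724) and had 0.11 and 0.24 at the other two, with an unadjusted p of 0.00303 for the latter. Kif5b, a kinesin motor, was called lower at 1418431_at (-0.35) and had 0.0602 at its brightest of 6. Smg1 had 0.14 at its brightest, opposite to the separated probe set above. Ptn, which encodes the growth factor pleiotrophin, was called higher at its brightest probe set, by 0.25 (limma adjusted p = 0.013), and had -0.12 at another with a mean of 1059 units. Pnma2, a neuronal antigen, had 0.47 at its brightest and -0.27 at its other probe set. Tsnax, Eif2ak1, Ddr1, Erc1, Zdhhc14, Ndufa12 and Ppip5k1 also held probe sets on both sides of 0, with called differences of -0.36, 0.32, 0.51, 0.51, -0.15, -0.39 and -0.71. Of these calls, 6 ended without number 5. The others that ended them were 3, 4, 10 and 12 for Kif5b (adjusted p up to 0.0778), 2, 3, 4, 7, 11 and 12 for Tsnax (up to 0.0938) and 4, 7 and 11 for Ppip5k1 (up to 0.0778). For Eif2ak1 they were 1 to 4, 7, 8, 11 and 12 (up to 0.0988), for Zdhhc14 1, 3, 4 and 8 to 12 (up to 0.124) and for Ndufa12 1, 2, 3, 6, 7, 11 and 12 (up to 0.132).

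Genes of protein folding had mostly negative differences between high and low freezing arrays. These genes encode cytosolic heat shock proteins, which refold damaged proteins, and chaperones and disulfide isomerases of the endoplasmic reticulum, which fold secreted and membrane proteins; the latter are induced together when unfolded proteins gather there. Of 21 measured at the brightest probe set, 4 were above 0 and 4 were called lower, where 0.552% of all genes were, and 0 higher. The list's median was -0.19 (-0.11 in the hippocampus and -0.21 in the amygdala) against 0.00194 over all genes, of which 50.7% were above 0. In both regions 13 were below 0 and none was above. The list was chosen with earlier results of these arrays known, so its direction is not independent evidence.

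The called genes were Hspa5, Pdia6, Manf and Hsph1. Pdia6, a disulfide isomerase, ranged from 460.4 to 631 units in high and 556 to 659 in low freezing hippocampus. In the amygdala the ranges, 490.3 to 561 and 582 to 709, did not overlap. Its difference was -0.25 (SE 0.048, 1.19-fold, limma adjusted p = 0.0069). Manf, a secreted factor of the endoplasmic reticulum, likewise separated in the amygdala, with 597 to 697 against 739.6 to 939.8 units, overlapped in the hippocampus (501 to 674 against 518 to 883) and had a difference of -0.29 (limma adjusted p = 0.0303). Hspa5, which encodes the master chaperone BiP, ranged from 2396 to 3014 (median 2719) units in high and 2907 to 4277 (median 3770.1) in low freezing amygdala. The groups overlapped in both regions. In the hippocampus it was at 1894 to 2497 against 1952 to 3659, and the combined difference was -0.34 (limma adjusted p = 0.036). Averaged over its 3 probe sets it was -0.0778 and not called (adjusted p = 0.622). The second brightest, 1427464_s_at, was also lower in high freezing arrays (limma unadjusted p under 0.05) and was not called. It was at 979 to 1364 against 1179 to 1780 units in the amygdala and 895 to 1181 against 830 to 1443 in the hippocampus. A dimmer probe set named for Hspa5, 1447824_x_at, was called higher by 0.29 at a mean of 211 units, against 2818 for the brightest. That call ended without number 1 to 4 or 9 to 12 (up to 0.114).

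Calr, a calcium-binding chaperone, had negative differences at all 3 probe sets, of which 2 were called. At 1433806_x_at high freezing amygdala arrays held 672 to 1053 (median 982) units and low freezing ones 1156 to 1444 (median 1306), without overlap, while in the hippocampus 815 to 1033 against 899 to 1238 units overlapped. The difference was -0.37 there and -0.33 at 1456170_x_at (limma adjusted p = 0.00383 and 0.0044), and -0.17 at the brightest, which was not called. Hsph1, at -0.19 (limma adjusted p = 0.0495), and Hsp90aa1, called lower at 1 probe set (-0.22) with 0.0161 at its brightest, were named after their values were seen. The Hsph1 call ended without number 2, 3, 5, 7 or 9 to 12 (adjusted p up to 0.132) and that of Hsp90aa1 without 2 to 5 or 10 to 12 (up to 0.109). Hsp90b1, Pdia3 and Pdia4 stood above 0 and were not called, at 0.0968, 0.0332 and 0.21. The inducible Hspa1b had 0.18 in the hippocampus and -1.32 in the amygdala. Calls of Pdia6 and of both Calr probe sets held in all 12 fits without 1 number. That of Hspa5 ended without number 2, 3, 4, 5, 7, 9, 11 or 12 and that of Manf without 3, 4, 5, 7, 8 or 11 (adjusted p up to 0.0985 and 0.0808), and with array median as covariate no gene of the list was called while its median was -0.15.

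**Figure D4:**
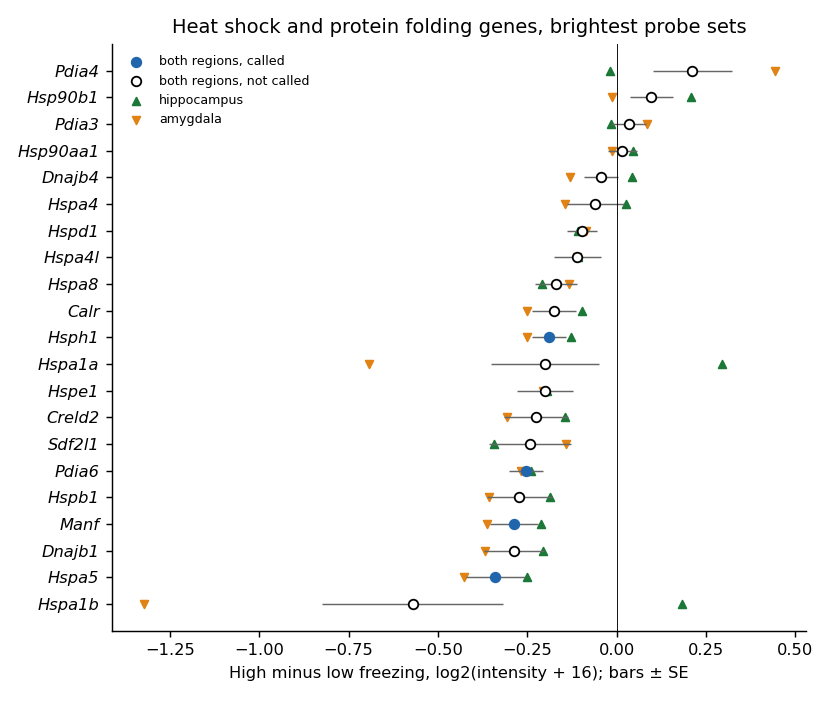
Difference between high and low freezing arrays for the 21 measured folding genes at their brightest probe sets, on the scale of log2(intensity + 16), with the SE of the combined value. Filled circles are the 4 called genes, open circles the others, and triangles the values of each region; 17 of 21 combined values lie below 0, and some genes, Hspa1a and Hspa1b among them, have their regional values on opposite sides.

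Some of the endoplasmic reticulum genes share a promoter element. The stress response element, searched on both strands as CCAAT and CCACG with 9 bases of any kind (N) between them, was present in 39 of 32851 RefSeq promoter windows (0.119%), each reaching from 250 bases before to 50 after a gene's start. By gene, 37 of 27025 symbols had it. Among the 18 genes of the list with a window it was present in 5: Hspa5, Calr, Pdia6, Creld2 and Hsp90b1. Of these, Creld2 (-0.23) and Hsp90b1 (0.0968) were not called. Of the called genes, Hsph1 had 2 windows without the element and Manf had no window. Calr was not called at its brightest probe set (-0.17) but at 2 others. The windows of Hspa5 (chr2:34771840-34772139, plus strand), Calr (chr8:84846882-84847181, minus strand), Pdia6 (chr12:17266339-17266638, plus strand) and Hsp90b1 (chr10:86705395-86705694, minus strand) follow, from RefSeq on GRCm38.p6. They are shown because called genes have the element in common with Hsp90b1, which was not called. Capitals mark the matches, 2 of them in Hsp90b1, and a match is a sequence and not evidence that a factor binds.
Hspa5: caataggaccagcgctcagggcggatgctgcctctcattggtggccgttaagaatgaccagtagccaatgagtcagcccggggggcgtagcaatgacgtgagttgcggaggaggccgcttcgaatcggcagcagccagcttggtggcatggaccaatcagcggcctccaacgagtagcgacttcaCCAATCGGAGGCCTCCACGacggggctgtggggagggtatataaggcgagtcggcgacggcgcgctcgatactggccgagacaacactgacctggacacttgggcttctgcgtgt
Calr: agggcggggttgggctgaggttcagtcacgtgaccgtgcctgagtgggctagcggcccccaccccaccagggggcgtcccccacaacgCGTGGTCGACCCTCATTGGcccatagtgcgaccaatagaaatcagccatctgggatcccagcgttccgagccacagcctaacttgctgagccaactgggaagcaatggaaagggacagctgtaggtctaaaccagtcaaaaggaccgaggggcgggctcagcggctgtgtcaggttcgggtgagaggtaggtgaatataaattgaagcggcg
Pdia6: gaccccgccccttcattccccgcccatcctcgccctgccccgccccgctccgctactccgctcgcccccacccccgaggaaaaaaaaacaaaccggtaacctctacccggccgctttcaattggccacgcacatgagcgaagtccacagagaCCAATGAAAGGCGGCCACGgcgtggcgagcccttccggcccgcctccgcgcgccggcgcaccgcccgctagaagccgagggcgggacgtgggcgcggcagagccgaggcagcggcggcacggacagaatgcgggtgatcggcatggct
Hsp90b1: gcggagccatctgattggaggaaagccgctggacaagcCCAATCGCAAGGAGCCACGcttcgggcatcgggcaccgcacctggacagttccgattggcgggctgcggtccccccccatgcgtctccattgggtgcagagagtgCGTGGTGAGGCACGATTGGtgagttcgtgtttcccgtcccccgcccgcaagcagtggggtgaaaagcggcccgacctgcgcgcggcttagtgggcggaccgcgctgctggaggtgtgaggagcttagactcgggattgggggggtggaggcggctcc

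Glutathione guards cells against peroxides and aldehydes, and 2 of 15 measured genes of its metabolism and of the glyoxalases were called, 1 in each direction, where 1.06% of all genes were. Slc7a11, which imports the cystine needed for glutathione, was higher, as given above. Gclc, the catalytic subunit of the enzyme that starts glutathione synthesis, was lower, at 444 to 617 against 529 to 669 units in the hippocampus and 578 to 726 against 612 to 844 in the amygdala. The ranges overlapped, with a difference of -0.22 (SE 0.0552, limma adjusted p = 0.0495), and the call ended without any 1 of the numbers 2 to 6 and 9 to 12 (adjusted p up to 0.114). Of the 15 genes 5 were above 0, and the median was -0.0614. Among 13 lysosomal proteases Ctsc was called lower and Prcp higher (1.06% of all genes were called), and the other 11 lay between -0.11 (Ctsz) and 0.0248 (Ctsl). Among 9 genes of MHC class I and antigen processing B2m was the only one called, in the lower direction as 0.552% of all genes, and 5 were above 0 (median 0.0308, and -0.0109 after quantile normalization). The proteasome had 5 of 16 above 0 (median -0.0542) and no call.

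None of the 88 measured genes in 8 synaptic and activity lists was called. Of all genes 1.06% were, a share so low that the lack of calls among 88 does not set these genes apart. The lists hold AMPA and kainate receptors, NMDA receptors, metabotropic glutamate receptors, postsynaptic scaffolds, GABA-A receptor subunits, vesicle release, calcium/calmodulin kinases and immediate early genes. An unadjusted p under 0.05 was present at 13 of these genes (14.8%), against 2022 of 12491 genes (16.2%), so their share was near that of all genes. The median differences of the 8 lists lay between -0.0337 and 0.0926. Arc and Egr1, genes induced by neuronal activity, had -0.30 and -0.25, and the glucocorticoid receptor Nr3c1 -0.0214, none of them called. Ntrk3, the receptor of neurotrophin 3, was called lower at 1447723_at (-0.61, limma adjusted p = 0.0183; 0.0615 and 0.0519 without number 3 or 10). At its brightest of 6 probe sets it had 0.0657, so the call concerns 1 probe set. Of its 5 other probe sets, 2 had the opposite sign with a limma unadjusted p under 0.05. At 1447723_at the high freezing hippocampus held 126 to 242 and the low freezing one 223 to 354 units.

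Ribosomal and respiratory genes lay slightly below 0 without calls at their brightest probe sets. Of 13 ribosomal protein genes 2 were above 0, with a median of -0.0689, which was -0.0201 after quantile normalization. Oxidative phosphorylation had 5 of 25 above 0 and a median of -0.0508, which became -0.0188. Rpl7 was called higher at a dimmer probe set (0.35, limma adjusted p = 0.0392), against -0.0806 at its brightest, and that call ended without number 1, 3 to 6 or 8 to 11 (adjusted p up to 0.0996). These are highly expressed families with many near-identical copies in the genome, whose probe sets can read several genes.

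Markers of other cell types were examined for shifts in the make-up of the dissected tissue. Microglia, the resident immune cells, had 1 of 11 markers above 0, against 50.7% of all genes, and a median of -0.0887. Of the 11, 1 was called lower, where 0.552% of all genes were. C1qc, a chain of the first complement component, was the called marker, with a difference of -0.40 (limma adjusted p = 0.0441), and held 162 to 233 units in high and 232 to 429 in low freezing amygdala. Its call held only without number 2, 11 or 12 (adjusted p otherwise up to 0.117). Its partners C1qa and C1qb had -0.21 and -0.24, and the receptor Trem2 -0.60, none called, whereas Tmem119 had 0.00365 and P2ry12 -0.0386. Summed microglia markers ranged from 3931 to 4298 units in high and 4104 to 4642 in low freezing hippocampus, and from 5074 to 5608 and 5094 to 7031 in the amygdala.

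Oligodendrocyte markers had 2 of 11 above 0 (median -0.0703), with summed values that overlapped between groups in both regions, 14870 to 19040 against 14950 to 20020 units in the hippocampus. Excitatory neuron markers had 6 of 7 above 0 with a median of 0.20, led by Neurod6 (0.42), and none was called. Their sums were 2147 to 3425 units in high and 1928 to 2924 in low freezing amygdala, and 7613 to 9296 and 7811 to 9797 in the hippocampus. Markers of pericytes and meninges (8 of 9 above 0, median 0.13) and of choroid plexus (9 of 10, median 0.12) had no calls. Medians of the former were 0.246 in the hippocampus and 0.0861 in the amygdala, with 5 genes above 0 in both. Those of the choroid list were 0.232 and -0.0145, with 3 genes above 0 in both regions. Sums of the choroid list varied most, 2458 to 13620 units in high and 2023 to 12140 in low freezing hippocampus. Markers of the central amygdala and striatum had 4 of 13 above 0 and no call, with medians of 0.12 in the hippocampus and -0.21 in the amygdala. Their summed level in the hippocampus did not overlap between groups, 1974 to 2260 units in high and 1723 to 1961 in low freezing arrays. Of the 14 cell type lists, no other had sums that separated the groups in either region. Endothelial markers other than Adgrl4 lay between -0.15 and 0.0856. The part of tissue make-up in the gene differences above was not tested.

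Genes known to differ between or within the parental strains were given whether called or not. Gabra2, the GABA-A receptor subunit whose expression is low in C57BL/6J because of an intronic deletion, ranged from 755 to 1170.2 (median 1062) units in high and 423 to 971 (median 745) in low freezing hippocampus. In the amygdala it was at 345 to 815 (median 621) and 376 to 606 (median 413). The groups overlapped in both regions, and the difference of 0.39 (SE 0.12) did not pass (limma adjusted p = 0.109). Nnt, the mitochondrial transhydrogenase that C57BL/6J lacks in working form, had -0.0187, Cox7a2l, an assembly factor of respiratory supercomplexes, -0.0417, and the glyoxalase Glo1 -0.18, with adjusted p of 0.962, 0.775 and 0.536. Glo1 ranged from 757 to 1563 units in high and 897 to 1812 in low freezing hippocampus.

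Called genes were unevenly spread over the chromosomes. Of 12438 genes with a place in the RefSeq table, 220 (1.77%) had a called probe set. Chromosome 14 had 21 of 437 (4.81%), with probe sets in the high direction at 17 and in the low at 6, 2 of these genes having both. Chromosome 2 had 35 of 991 (3.53%), chromosome 7 had 29 of 929 (3.12%), chromosome 3 had 16 of 629 (2.54%) and chromosome 11 had 24 of 999 (2.40%), 19 of them in the low direction. At the other end chromosome 17 had 2 of 568 (0.352%). No test was made of this spread, since neighbouring genes in a cross share their alleles and are not independent.

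**Figure D5:**
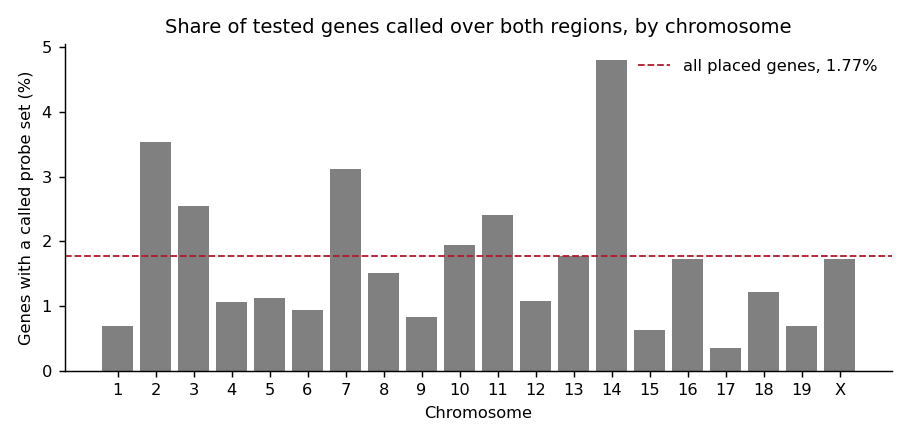
Share of tested genes on each chromosome, in percent, that had at least 1 probe set called over both regions. The dashed line is the share of all placed genes, 1.77%; chromosome 14 reaches 4.81% and chromosome 17 lies at 0.352%.

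Called genes also lay side by side. With at most 10 tested genes between neighbours, 9 runs of at least 4 called genes held 48 of the 220. The longest, on chromosome 2, joined 11 genes from Rpap1 to Bloc1s6 among 41 tested and held Tmem87a, Zscan29, Trp53bp1 and B2m, 7 in the high and 4 in the low direction. On chromosome 14 a run of 7 held Ang, Rpgrip1 and Gm26782 in the high direction beside Supt16 (-0.48), a histone chaperone, in the low. Chromosome 7 held 3 runs. The first held Fah (-0.40), which ends tyrosine breakdown, Ctsc, Me3 (-0.46), a malic enzyme of mitochondria, and Eed (-0.22), a subunit of a histone methyltransferase, all lower. Their calls ended without number 2 or 11 for Me3 (adjusted p up to 0.0599) and without 2, 3, 4, 8, 11 or 12 for Eed (up to 0.0922), and that of Supt16 without 1 or 7 (up to 0.0683). The second held Prcp, Kctd14 and Myo7a, all higher, and Thrsp, lower.

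The last run on that chromosome held 5 genes, all higher, from Eri2 through Tmem159 and Crym to Mosmo and Polr3e. Crym, a thyroid hormone binding protein of forebrain neurons, had a difference of 0.43 (limma adjusted p = 0.025, up to 0.0734 without number 3, 4, 5, 8 or 11) and Tmem159, a lipid droplet protein, of 0.56 (limma adjusted p = 0.00724). Polr3e, a subunit of RNA polymerase III, had 1.02 at its called probe set and 0.23 at its brightest. A run on chromosome 3 joined Adgrl4 with Fubp1, Zzz3, Cryz and Fpgt, 4 higher and 1 lower. Within most runs genes of both directions were thus interleaved, 2 of the 9 being in 1 direction throughout. Run members were named after their values were seen, where the naming rule does not hold them.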

How the data were processed

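The deposited values, 1 intensity per probe set on a linear scale for 45101 probe sets on each of 24 arrays, were used as the authors gave them. Their summary and scaling method was not given in the sources used here, and on each array the deposited intensities had a mean of 150 once the top and bottom 2% were set aside. The number of arrays, 12 per freezing group, limits the precision. Control probe sets (64) and the 40% dimmest of the rest by mean intensity were left out, and log2(intensity + 16) was taken with no further normalization, since array medians spanned 0.172 on that scale, under a limit of 0.2. Gene symbols came from the platform annotation, updated through a RefSeq table of GRCm38.p6 that also gave the order of genes. Probe sets with several symbols (565) or none (3620) were counted but not named. Names ending in x_at or s_at mark probe sets that may read more than 1 transcript.

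With limma 3.58.1 in R 4.3.3, freezing group was fitted with region as covariate (21 residual degrees of freedom), with the variance prior following intensity, two-sided tests and Benjamini-Hochberg adjustment over all 27022 probe sets at 0.05. The interaction was fitted separately. In 1 simulated data set with independent noise, the main fit recovered 23 of 67 planted log2 differences of 0.25, so most of that size were missed. It recovered 53 of 67 of 0.5 and 64 of 66 of 1, with 10 false calls. A gene's brightest probe set is the one with the highest mean intensity. Named genes were the 12 highest and 12 lowest differences among called brightest probe sets, genes with at least 2 called probe sets or with a called probe set and an opposite one at an unadjusted p under 0.05, up to 3 called members of each of 21 function and 14 cell type lists, genes with known parental variants, and the 5 smallest interaction p. Members and lists were chosen with earlier results of these data known, and lists are described by counts and medians without a test. Alternatives changed the offset, normalization, filter, variance prior, weights, design, block, covariate, region, summary per gene and the title number left out, which removes both arrays of that number.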

Additional observations from a re-analysis of the deposited data

Results flagged for a closer look

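The called probe sets in the naming rule, the array median and the control ratios were examined, 352 groups of 6 arrays in all. In 8 of them the distance of 1 array to its nearest took more of the range than Dixon's 95% limit allows. Chance gives this in about 1 in 20 groups of independent, normally spread values. Most groups here are of probe sets already called, which favours a small spread within groups, and they share arrays. The 8 of 352 can therefore not be compared with that share. In low freezing hippocampus it was Pnma2, with 164 units against 255 to 324 on the other arrays. In high freezing hippocampus it was Prcp (1452190_at), with 28 units against 43.3 to 54, which brought that array into the low freezing range. Low freezing amygdala held 4 of the 8: Ccdc91 with 143 units against 247 to 303, Fam104a (1418887_a_at) with 297 against 186 to 220, Erc1 with 38.6 against 26.2 to 30.5, and Smg1 (1457262_at) with 173 against 90.9 to 104. The last 2 were both on the array numbered 5. In high freezing amygdala Calr stood apart at both of its called probe sets on the array numbered 11, with 672 units against 944 to 1050 at 1433806_x_at and 886 against 1060 to 1130 at 1456170_x_at.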

How the results depend on the processing

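The 284 calls (143 higher, 141 lower) became 790 (110 and 680) with arrays centred on their median, 20 (7 and 13) with array median as a covariate, 154 (77 and 77) with 1 probe set per gene and 162 (90 and 72) with probe sets averaged per gene, the last 2 over fewer features. Without an intensity trend they were 191 (113 and 78), in the hippocampus alone 22 (12 and 10) and in the amygdala alone 0 (0 and 0), with fewer arrays. Leaving out 1 title number gave 136 to 414 calls, 66 to 213 higher and 59 to 201 lower. It gave a share of probe sets with the same sign in both regions of 56.92% to 60.18%, and 0 interaction calls each time. The remaining settings, offsets of 1 and 64, quantile normalization, no filter, a filter at 60%, robust prior, array weights and 4 group means, gave 210 to 314 calls. Same-numbered arrays of the regions deviated together with correlations of -0.079 to 0.084, 4 of 12 best with their own number, so the numbers were not taken to pair arrays. With the title number as a random block there were 260 calls (133 and 127), with the mean of same-numbered arrays 197 (101 and 96), and 0 interaction calls with the block. All 85 called probe sets that were named kept their sign except Dusp3 (1434472_at), at 0.20 when averaged over its probe sets, and 5 were called in each setting they were run in other than 1 region alone. Among the 5, the probe sets of Tsc22d1 and Msi2 were not run in the settings with 1 value per gene, as they are not the brightest. The uncalled Nnt turned from -0.019 to 0.18 with the covariate, 0.0591 in the amygdala alone and 0.0286 averaged over its probe sets, and ran from -0.0746 to 0.0496 without 1 number, and the uncalled Cox7a2l to 0.0849 with the covariate. Apart from fewer features or arrays, the cause of these changes was not tested.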

Other observations

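Of the 20 probe sets called with array median as a covariate, 18 were also called without it, and some of these lay outside the genes named above. They were chosen after their values were seen. Mga, a partner of the transcription factor Max, had 82.6 to 235 units in high and 198 to 303 in low freezing hippocampus at 1 of 3 probe sets, and 83.6 to 226 against 202 to 309.7 in the amygdala. Its difference was -0.69 (limma adjusted p = 0.0126), while its brightest probe set stood at 0.0905. Cog1, a subunit of a Golgi tethering complex, did not overlap in the hippocampus at 1 of 5 probe sets, with 17.6 to 72.7 against 77.1 to 159.7 units and a combined difference of -0.87 (limma adjusted p = 0.00272), but had 0.0515 at its brightest. Bloc1s6, a subunit of a complex that forms lysosome-related organelles, was higher at 1 of 3 probe sets, with 42.98 to 84.1 against 8.14 to 34.2 units in the hippocampus and a combined difference of 0.93 (limma adjusted p = 0.00143). At its brightest it had -0.0316.

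Other such genes were called at their brightest or single probe set. Blvra, which encodes the enzyme that reduces biliverdin to bilirubin, was at 165 to 211 units in high and 205 to 267 in low freezing amygdala, with a combined difference of -0.29 (limma adjusted p = 0.0134). Pgbd5, a gene derived from a transposase, was at 794 to 1560.5 units in high and 632 to 1099 in low freezing hippocampus, with a combined difference of 0.43 (limma adjusted p = 0.0105). The calls of these 5 genes held in all 12 fits without 1 number.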
